A study of Mus musculus with 12 samples.

Results

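The data describe the 2 arms of the precursor miR-338, mmu-miR-338-3p and mmu-miR-338-5p (mmu for mouse, left out hereafter), in mouse bone marrow cultures that were becoming osteoclasts, the cells that resorb bone. These members were chosen by array name, 2 of the 696 mouse miRNAs on the array, because earlier results of the same arrays gave them opposite changes over time. Their changes are therefore given as a description, without a test. Marrow of male C57BL/6 mice, 6-8 weeks old, was depleted of cells carrying B220/CD45R or CD3, that is of B and T lymphocytes. The remaining osteoclast precursors were cultured with 30 ng/ml of M-CSF, the growth factor that sustains them, and 30 ng/ml of RANKL, the cytokine that drives osteoclast formation, for 1, 3, or 5 days. Each day was represented by 4 cultures, and the RNA of each culture was labeled with Cy3 and hybridized to 1 of 12 single-color Agilent miRNA arrays. All groups received both cytokines, so day 1 served as the reference and no culture without RANKL was among the arrays analyzed.

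A miRNA precursor is a hairpin, and cutting it releases a duplex of its 5′ and 3′ arms. Usually 1 arm is loaded into an Argonaute protein and kept as the guide strand, while the other is lost more quickly, so both arms come from the same transcript but can reach different levels. The loaded arm recognizes its target mRNAs mainly through its seed, bases 2 to 8. Mir338 is known to lie in an intron of Aatk, which encodes a neuronal kinase, and miR-338-3p is best known from oligodendrocytes, where it acts together with miR-219.

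The mature sequences are shown because the arms have different seeds, and the hairpin because it shows that both arms come from 1 transcript. They were taken from RefSeq (GRCm38.p6), where both members were matched by name. In the mature forms the capitals mark the seed, and in the hairpin they mark the arms, the 5p arm first.
miR-338-3p: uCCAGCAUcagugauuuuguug
miR-338-5p: aACAAUAUccuggugcugagug
Mir338 hairpin: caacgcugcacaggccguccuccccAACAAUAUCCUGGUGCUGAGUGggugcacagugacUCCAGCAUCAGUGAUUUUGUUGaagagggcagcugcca
The 98-base hairpin lies on the minus strand at chr11:120014765-120014862, inside the bounds of Aatk (chr11:120007311-120047183). Within the hairpin, miR-338-5p takes up bases 26 to 47 (chr11:120014816-120014837) and miR-338-3p bases 61 to 82 (chr11:120014781-120014802). Each arm is 22 bases long. None of the 558 array miRNAs with a RefSeq sequence shares bases 2 to 8 with either arm. The opposite genomic strand encodes Mir3065, and 21 bases of miR-3065-5p are complementary to miR-338-3p, but no miR-3065 entry is on this array. The 1 other array miRNA placed within 5 Mb, miR-1932, was not detected on any array.

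The array measures a miRNA with 20 spots divided among its probes, which pair with the 3′ end of the mature RNA. For miR-338-3p there were 2 probes of 10 spots each, and for miR-338-5p 4 nested probes of 5 spots each. The probe that gave most of the signal of each arm is shown here, because the values below rest on it, in lower case throughout.
miR-338-3p, 21-base probe: caacaaaatcactgatgctgg
miR-338-5p, 14-base probe: cactcagcaccagg
The 21-base probe is complementary to bases 2 to 22 of miR-338-3p, whereas the 14-base probe covers only bases 9 to 22 of miR-338-5p and so leaves out its seed. In the array's own annotation (mm9) they are placed at chr11:119876141-119876160 and chr11:119876113-119876125. These listed places are each 1 base shorter than the probe and put the 3p probe above the 5p probe, the reverse of the RefSeq order, so the arms were told apart by probe sequence and not by place. Since the probes of the arms differ in length and sequence, a level of one arm cannot be set against a level of the other, and only the change of the arm ratio between days was read.

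Of the 696 miRNAs, 334 were detected on at least 1 array. Days 1 and 5 shared 1 slide and day 3 had a slide to itself, so any contrast with day 3 cannot be told apart from a difference between slides, while day 5 against day 1 was measured within a slide. The array of day 5 replicate 4 stood apart, with 186 miRNAs detected against 211 to 276 on the other 11 arrays, and with a median error of the total signal of 85.3 against 21.7 to 49.8. In RNA from whole cultures, fewer cells of a type and less RNA per cell cannot be told apart.

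mmu-miR-338-3p was brightest at day 1, dimmest at day 3, and in between at day 5. Its total signal, the sum of its probes after background subtraction and before any normalization, was 502, 408, 638, and 403 on the 4 arrays of day 1. At day 3 it was 174, 119, 149, and 111, and at day 5 it was 366, 271, 325, and 298. Every array of day 3 lay below every array of the other days, and every array of day 5 lay below every array of day 1. On this scale 50.9% of the 334 detected miRNAs had every array of day 3 below day 1, 36.5% had every array of day 5 below day 1, and 32.9% had every array of day 5 above day 3. As means these were 488 ± 110 (SD, n = 4) at day 1, 138 ± 29.0 at day 3, and 315 ± 40.8 at day 5, so that day 3 stood at 28.3% and day 5 at 64.6% of day 1. The scanner software marked miR-338-3p as detected on 11 of 12 arrays, the exception being day 3 replicate 4. The signal was 2.60 times its own error on that array and between 3.32 and 10.5 times its error on the others.

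mmu-miR-338-5p, by contrast, gave much the same total signal on all 3 days. It was 126, 81.7, 75.2, and 81.6 at day 1, then 89.0, 61.9, 70.4, and 77.5 at day 3, and 106, 94.6, 75.04, and 53.1 at day 5. The days overlapped in every comparison, and their means were 91.0 ± 23.2 (SD, n = 4), 74.7 ± 11.5, and 82.2 ± 23.2. The mean of day 3 was 82.1% and that of day 5 was 90.3% of the day 1 mean, with differences below the SD of day 1. Although this arm was marked as detected on all 12 arrays, its signal was only 0.87 to 5.56 times its own error. The lowest of these values came from day 5 replicate 4, where the total signal of 53.1 carried an error of 61.3. Leaving out that array, the mean of day 5 was 91.9 (n = 3), and leaving out day 1 replicate 1, the brightest array, the mean of day 1 was 79.5 (n = 3).

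**Figure D1:**
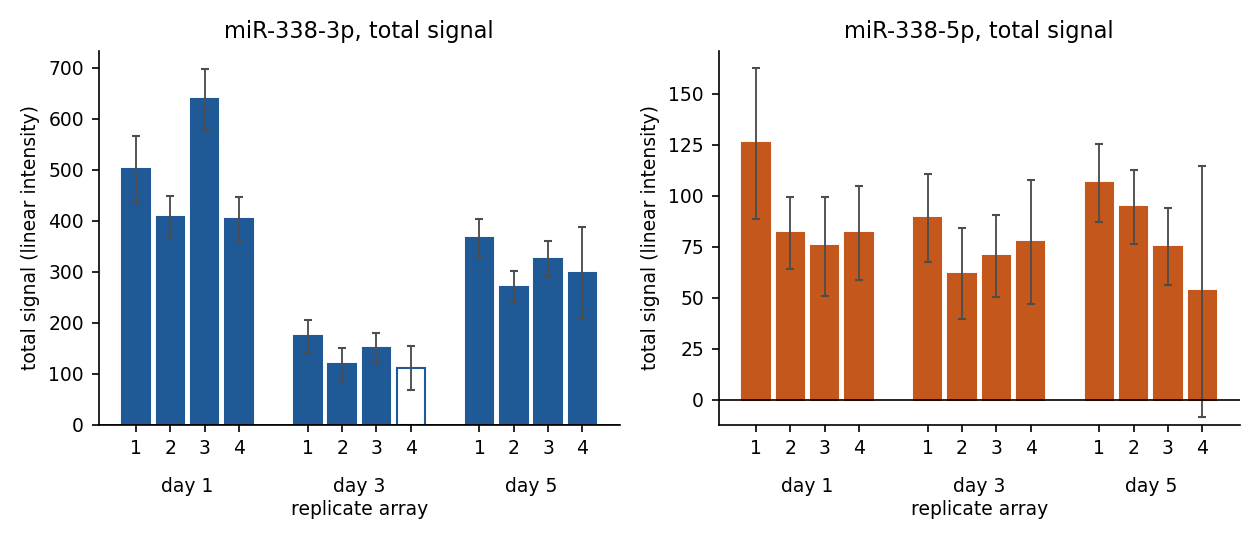
Total signal (linear intensity, not normalized) of miR-338-3p (left) and miR-338-5p (right) on each of the 4 replicate arrays of days 1, 3, and 5. Bars start at 0, whiskers show the error the scanner software gave for that array, and the open bar is the 1 array without detection. The 3p bars of day 3, 111 to 174, lie below all others, while the 5p bars of the days overlap.

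The probes showed where these signals came from. The 21-base probe of miR-338-3p gave 399, 308, 485, and 292 at day 1, 148, 102, 111, and 92.5 at day 3, and 294, 210, 239, and 273 at day 5. The 20-base probe of the same arm, 1 base shorter, gave 103, 99.6, 153, and 111, then 25.7, 16.98, 38.2, and 18.5, and then 72.3, 60.1, 85.2, and 25.1. Both probes were therefore lower at day 3 than at day 1 on every array, with means at 30.6% and 21.3% of day 1. At day 5 the 20-base probe lay below all day 1 arrays, whereas the 21-base probe overlapped with them. Such separation was common without normalization. In total signal, 50.9% of the 334 miRNAs had every array of day 3 below day 1, and 36.5% every array of day 5. Of the 40 spots of the 21-base probe per day, 40, 19, and 33 were well above background at days 1, 3, and 5, and for the 20-base probe these numbers were 24, 1, and 11.

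The signal of miR-338-5p rested on 1 of its 4 probes. The 14-base probe gave 101, 61.1, 76.7, and 81.5 at day 1, 88.1, 67.7, 66.3, and 73.0 at day 3, and 112, 92.9, 84.5, and 111 at day 5. Of its 20 spots per day, 16, 19, and 15 were well above background, against 0 of 60 spots over all arrays for each of the other 3 probes. The 15-base probe, which contains the 14-base sequence with 1 more base, stayed between 4.84 and 30.4. The probes of 12 and 13 bases lay near or below 0. Because the total signal adds all 4, values below 0 were subtracted from it, and on day 5 replicate 4 the 14-base probe alone gave 111 while the others summed to -57.9. Read from the 14-base probe alone, the day 5 mean was 125% of day 1 in place of 90.3%, and the arrays of both days still overlapped. For this arm the direction from day 1 to day 5 thus differed between its brightest probe and its total.

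**Figure D2:**
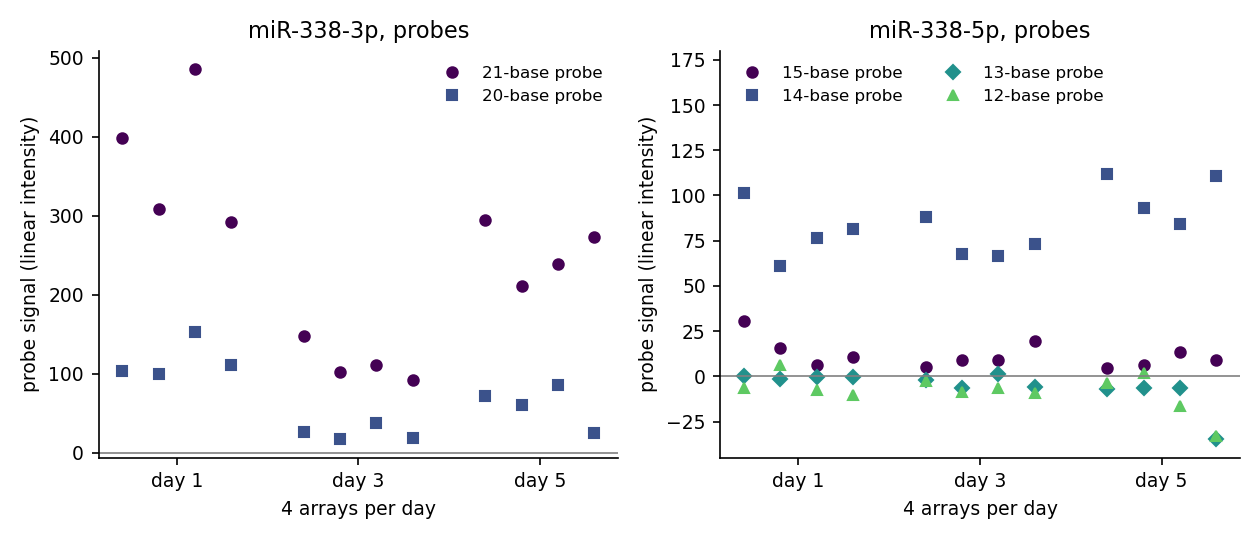
Signal of each probe (linear intensity after background subtraction) of miR-338-3p (left) and miR-338-5p (right), with 4 arrays per day from replicate 1 to 4. Both 3p probes are lowest at day 3, and for 5p only the 14-base probe lies clear of 0, at 61.1 to 112.

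Quantile normalization, which gives all arrays the same distribution of signals, was then applied to the 334 detected miRNAs. On the log2 scale miR-338-3p had levels of 8.36, 8.28, 8.88, and 8.74 at day 1, 7.79, 7.38, 7.83, and 6.85 at day 3, and 8.21, 8.21, 8.39, and 8.03 at day 5. Its mean went from 8.56 ± 0.29 (SD, n = 4) to 7.46 ± 0.46 and back to 8.21 ± 0.15. The day 3 mean was 1.10 below day 1, or 2.15-fold lower, and the day 5 mean was 0.35 below day 1, or 1.28-fold lower. The lowest day 3 level, 6.85, came from the array without detection of this arm. Leaving out that array, the difference between days 3 and 1 was -0.91. No array of day 3 overlapped with day 1 or with day 5, but day 5 and day 1 overlapped. Over all 334 miRNAs, 29.6% had every array of day 3 below every array of day 1, and 22.5% had every array of day 5 above every array of day 3.

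miR-338-5p had normalized log2 levels of 6.33, 5.59, 5.63, and 6.05 at day 1, 6.81, 6.51, 6.81, and 6.44 at day 3, and 6.85, 7.01, 6.29, and 6.47 at day 5. The means were 5.90 ± 0.35 (SD, n = 4), 6.64 ± 0.20, and 6.65 ± 0.33. After normalization this arm was thus 0.74 higher at day 3 and 0.75 higher at day 5 than at day 1, or 1.67-fold and 1.68-fold, with a difference of 0.01 between days 3 and 5. The lowest array of day 3 (6.44) lay just above the highest of day 1 (6.33), and the lowest of day 5 (6.29) just below it. Among all miRNAs, 29.9% had every array of day 3 above day 1. At day 5, 32.6% had every array above, and 29.9% every array below, day 1.

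The opposite directions depended on the scale on which the 5p arm was read. Without normalization the mean log2 signal of miR-338-5p was 6.48 ± 0.33 (SD, n = 4) at day 1, 6.21 ± 0.22 at day 3, and 6.31 ± 0.44 at day 5, lower by 0.27 and 0.16 than at day 1. On the same scale miR-338-3p was lower by 1.82 and 0.61. The difference in the 5p arm between days 5 and 1 came to 0.03 without day 5 replicate 4 and to 0.00 without day 1 replicate 1. The other miRNAs also shifted on this scale. The median change of the 148 miRNAs detected on all 12 arrays was -0.58 from day 1 to day 3 and -0.03 from day 1 to day 5. Relative to that median, miR-338-5p changed by 0.31 and -0.13, and miR-338-3p by -1.24 and -0.59. These relative values hold for any scaling by 1 factor per array, since such a factor moves the median and both arms alike.

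In the quantile normalized data the median of the same 148 miRNAs itself changed by 0.27 and 0.36. Relative to it miR-338-5p stood at 0.47 and 0.39, and miR-338-3p at -1.38 and -0.71. The rank of miR-338-5p among the 334 miRNAs, with 1 as the brightest, averaged 254 at day 1, 229.8 at day 3, and 229 at day 5, although its total signal was no higher. These ranks lay near the limit of detection. Detected miRNAs dimmer than miR-338-5p numbered 6 to 14 on the arrays of day 1, 0 to 6 at day 3, and 0 to 46 at day 5. On day 3 replicate 4 it ranked 237 with 211 miRNAs detected, so undetected entries stood above it, and on day 5 replicate 1 it ranked 223 with 269 detected. The rank of miR-338-3p averaged 153.5, 196.5, and 166. From day 1 to day 3 the arms thus lay on opposite sides of the median after quantile normalization and with 1 factor per array. From day 1 to day 5 this held only after quantile normalization, since with 1 factor per array the 5p arm also lay below the median.

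**Figure D3:**
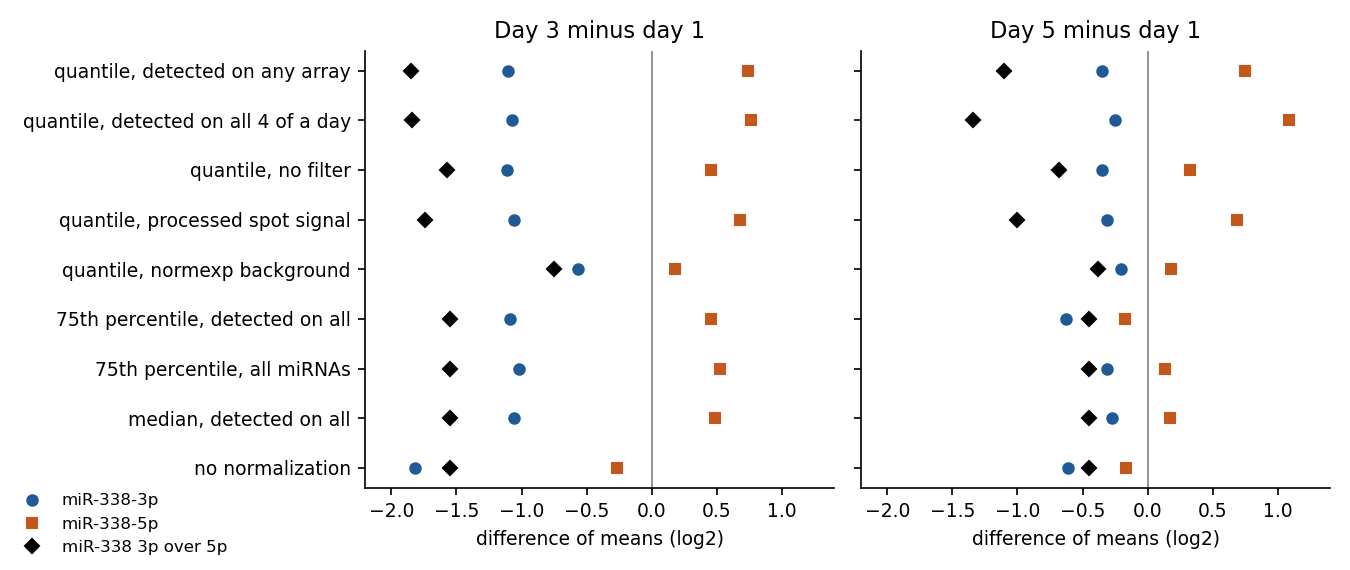
Difference of the day means (log2) of miR-338-3p, miR-338-5p, and their ratio from day 1 to day 3 (left) and from day 1 to day 5 (right) under 9 ways of processing. The 3p arm and the ratio lie below 0 in every row, whereas the 5p arm runs from -0.27 to 0.76 on the left and from -0.17 to 1.09 on the right.

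The ratio of the arms within an array does not depend on a factor shared by the whole array. Without normalization the log2 of 3p over 5p was 1.999, 2.32, 3.08, and 2.30 at day 1. It was 0.97, 0.94, 1.09, and 0.52 at day 3 and 1.79, 1.52, 2.11, and 2.49 at day 5. Every array of day 3 lay below every array of days 1 and 5, whereas days 1 and 5 overlapped. The means were 2.43 ± 0.46 (SD, n = 4), 0.88 ± 0.25, and 1.98 ± 0.42, so that the ratio was 2.93-fold lower at day 3 than at day 1 and 1.37-fold lower at day 5. Within the slide shared by days 1 and 5 the difference of 0.45 was thus of the size of the spread between arrays. Quantile normalization gave 2.66 ± 0.50, 0.82 ± 0.28, and 1.56 ± 0.39, with differences from day 1 of -1.85 and -1.10. The change from day 1 to day 5 was therefore 0.45 or 1.10 below 0, depending on the normalization.

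**Figure D4:**
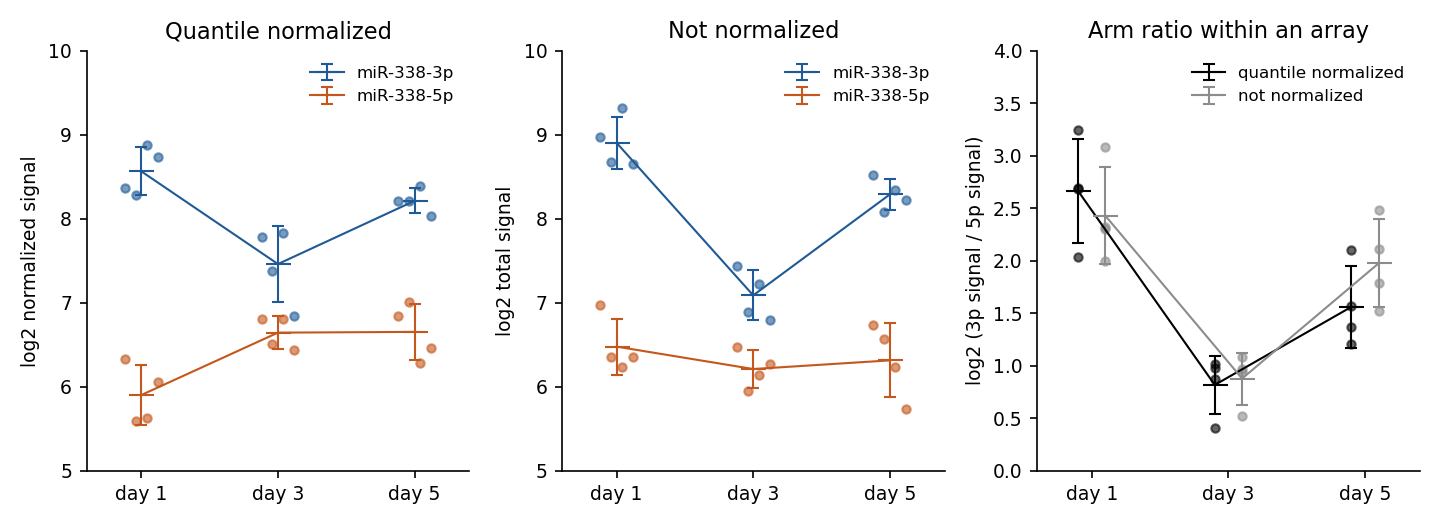
Left and middle, log2 signal of miR-338-3p and miR-338-5p at days 1, 3, and 5 with and without quantile normalization. Right, log2 ratio of the arms within each array. Points are single arrays and bars the mean ± SD (n = 4). The 3p arm and the ratio dip at day 3 on both scales, while the 5p arm is higher at days 3 and 5 (6.64 and 6.65 against 5.90) only in the left panel.

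In the deposited normalized table the 5p arm differed far more between days. The log2 values there for miR-338-5p were 2.03, -2.22, 0.21, and 1.43 at day 1, 5.42, 5.35, 5.19, and 5.46 at day 3, and 4.52, 5.42, 2.63, and 6.72 at day 5. The means were 0.36 ± 1.88 (SD, n = 4), 5.35 ± 0.12, and 4.82 ± 1.72, or a 31.8-fold higher value at day 3 and a 22.0-fold higher value at day 5 on this scale. The total signals behind these values, 75.2 to 126 at day 1 and 61.9 to 89.0 at day 3, overlapped. Below miR-338-5p in that table lay 7 to 19 detected features on the day 1 arrays and 5 to 23 on the day 3 arrays. At day 5 there were 57, 45, and 33 below it on replicates 1 to 3 and 5 on replicate 4. The lowest deposited value of an array ranged from -2.82 on the array with 276 detected miRNAs to 6.55 on the array with 186. The 3p arm had means of 8.21 ± 0.41, 6.38 ± 0.42 (n = 3, with 1 array left empty), and 8.00 ± 0.23. Its differences from day 1, -1.83 and -0.21, had the same direction as in the scanner signals.

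To see how often the arms of a precursor moved apart, all pairs of arms on the array were compared. Of 159 such pairs, 150 could be assigned to a 3p and a 5p arm, and in 49 of these both arms were among the 334 miRNAs tested. Besides miR-338 there were 48. After quantile normalization, 17 of the 48 (35.4%) had changes of opposite sign from day 1 to day 3. This held for 13 (27.1%) from day 1 to day 5, and for 9 (18.8%) from day 3 to day 5. Signs were counted whatever the size of the change and whether or not an arm was detected. Only 17 of the 48 pairs had both arms detected on all 8 arrays of days 1 and 5. Among these, 5, 5, and 3 had opposite signs in the same contrasts. Opposite signs with both arms past the threshold of limma (adjusted p under 0.01, Benjamini-Hochberg) occurred in 1 pair from day 1 to day 3, miR-1897, and in 0 from day 1 to day 5. In 7 and 14 pairs, respectively, both arms passed it in the same direction. Detection on every array was not required for these counts. Some of these pairs had an arm detected on few arrays, in 1 case on only 1, whereas in others, such as miR-674, both arms were detected on all 12. As a background, 27.2% of all 334 miRNAs rose and 25.1% fell from day 1 to day 3 in this test, and 31.7% rose and 29.0% fell from day 1 to day 5.

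The arm ratio itself was tested in the 48 other pairs with limma, within the fit over all 49. From day 1 to day 5 it passed the threshold in 9 pairs, some of which had an arm detected on few arrays, in 1 case on only 1. Over all 49 pairs 12.2% rose and 6.12% fell. Among pairs with both arms detected on all 8 arrays of these days, the largest shift toward 3p was in miR-1897 (log2 change 3.88, SE 0.22, adjusted p = 1.74e-07 from limma), where the 5p arm fell and the 3p arm differed by 0.33. Next came miR-139, whose change of 1.46 did not pass the test (adjusted p = 0.094 from limma), and miR-674 (1.12, adjusted p = 0.00336 from limma), where both arms rose. The shifts toward 5p were led by miR-324 (-1.57, SE 0.20, adjusted p = 0.000147 from limma) and miR-140 (-0.88, adjusted p = 0.00336 from limma). In both, the 5p arm rose, by 1.84 and 1.16, while the 3p arm differed by 0.27 and 0.28 and did not pass the test. The ratio of miR-338, with -1.10 in the same normalized data, lay between the values of miR-324 and miR-140. Without normalization it did not, with -0.45 against -1.49 in miR-324 and -0.74 in miR-140.

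The same comparison was made without normalization in the 30 pairs with a signal above 0 for both arms on every array. From day 1 to day 3 the ratio of miR-338 differed by -1.55, and of the 29 other pairs only miR-125a and miR-34b had a lower value. From day 1 to day 5 it differed by -0.45, with 10 pairs lower and 19 higher. From day 3 to day 5 it differed by 1.10, with 28 pairs lower and 1 higher. Among all 30 pairs, 23.3% had every array of day 3 below every array of day 1, and 13.3% had every array of day 5 above every array of day 3, and miR-338 was counted in both. These ranks describe a pair chosen for its pattern.

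**Figure D5:**
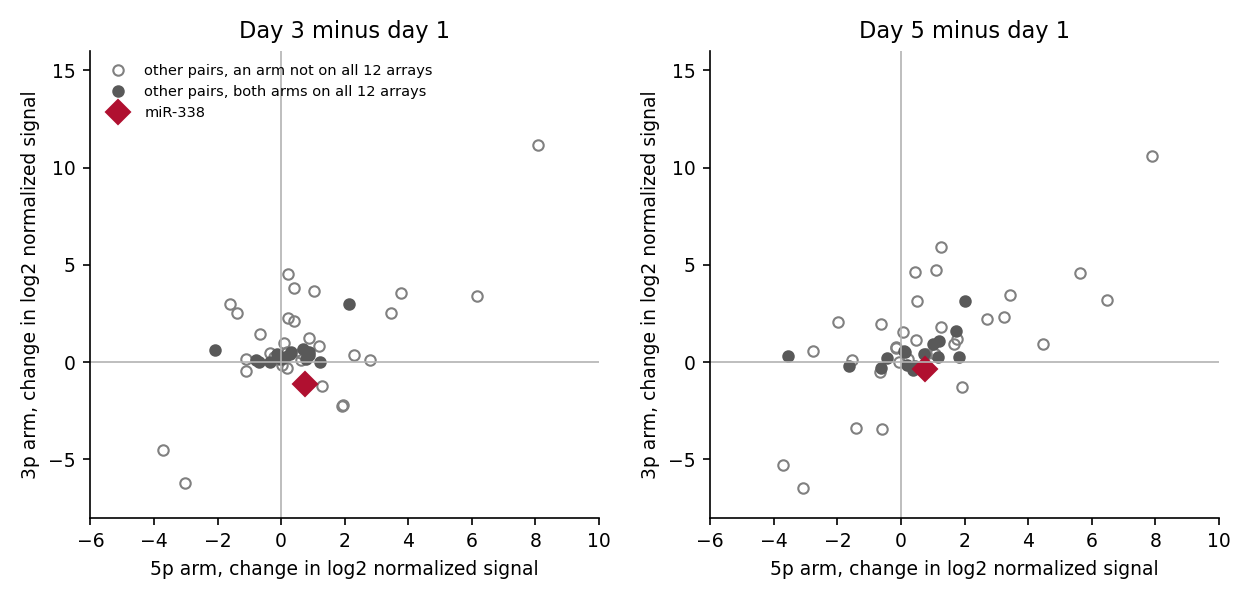
Change of the 3p arm against change of the 5p arm (difference of mean log2 normalized signals) from day 1 to day 3 (left) and from day 1 to day 5 (right) in 49 pairs of arms. Filled circles are pairs with both arms detected on all 12 arrays, open circles the other pairs, and the diamond is miR-338, at -1.10 (3p) and 0.74 (5p) on the left and at -0.35 and 0.75 on the right.

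The miRNAs whose pattern over the 12 arrays was most like that of each arm were found by the root mean square difference of the normalized log2 values, each miRNA centered on its own mean. Among 177 candidates, the closest to miR-338-3p were miR-340-5p (0.28), miR-146b (0.36), miR-15a (0.37), miR-195 (0.38), and miR-93 (0.40). miR-340-5p had means of 9.75 ± 0.12 (SD, n = 4), 9.06 ± 0.22, and 9.87 ± 0.17 at days 1, 3, and 5, the same dip at day 3. These miRNAs were picked for likeness to miR-338-3p, so a shared pattern follows from the choice. miR-15a and miR-195 belong to 1 seed family, and miR-146b is known from inflammatory signaling. Their day 3 means were 0.50, 0.48, and 0.86 below day 1, smaller differences than that of miR-338-3p.

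Among 147 candidates, the closest to miR-338-5p were miR-23a (0.28), miR-1937b_v16.0 (0.29), miR-22* (0.31), miR-128 (0.31), and miR-221 (0.32). All 5 had higher means at days 3 and 5 than at day 1, as in miR-22* with 9.86 ± 0.21 (SD, n = 4), 10.67 ± 0.11, and 10.86 ± 0.17. Since the 5 were picked for likeness to miR-338-5p, this shared direction follows from the choice. miR-23a held the same rank on all arrays of a day, so its normalized level of 15.45 at day 1 and 16.01 at days 3 and 5 had no spread. The root mean square difference between the arms of miR-338 was 0.83. The median over the candidates was 0.76 for miR-338-3p and 0.55 for miR-338-5p. Of 177 candidates, 105 were closer to miR-338-3p than its own partner was. For miR-338-5p this number was 115 of 147. The arms were chosen for opposite changes in these same data, so a distance between them follows from the choice.

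Because miR-338 is best known from nervous tissue, miRNAs of neurons and oligodendrocytes were examined as well. Of 7 on the array, miR-124, miR-9, miR-9*, and miR-138 were detected on 0 of 12 arrays. miR-219-5p, the oligodendrocyte partner of miR-338, was detected on 1. Only miR-128 and miR-7a, which are not restricted to neurons, were detected on all 12. miR-128 rose at day 3 by 0.59 (SE 0.11, adjusted p = 0.000853 from limma) and was 0.81 above day 1 at day 5 (adjusted p = 6.22e-05 from limma). miR-7a rose at day 3 by 0.63 (adjusted p = 0.00302 from limma) but did not pass the test at day 5, with 0.22 above day 1. The summed signal of the 7 ranged from 1546 to 2918 at day 1, 1641 to 2042 at day 3, and 1652 to 2725 at day 5.

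miRNAs listed as markers of other cells were measured over the same days, and their calls stand beside those of all 334 miRNAs. Of the 334, 27.2% rose and 25.1% fell from day 1 to day 3, and 31.7% rose and 29.0% fell from day 1 to day 5. Summed signals were not normalized, and on that scale the median miRNA was 0.58 lower at day 3 (log2). The erythroid miRNAs measured here, miR-451 and miR-144, both fell from day 1 to days 3 and 5, and their summed signal went from 29020-57393 to 810-1771 and 124-295. Of the 2, miR-144 was detected on only 2 arrays, both of day 1, and lay at the floor at days 3 and 5. miR-126-3p, abundant in megakaryocytes and endothelium, fell from 608-1337 to 15.5-47.1 at day 3 and was at most 40.1 at day 5. Of 5 stromal miRNAs, 4 rose from day 1 to day 5 (miR-143, miR-199a-3p, miR-199a-5p, and miR-214). At days 1, 3, and 5, miR-143 was detected on 0, 0, and 3 arrays and miR-214 on 1, 0, and 3. The rises of these 2 thus started from values mostly without detection. The list's summed signal, 494-896 at day 1 and 403-529 at day 3, reached 2432-3545 at day 5. The 3 lymphoid miRNAs did not move together. From day 1 to day 3 miR-181a fell by 0.96, miR-181b rose by 0.79, and miR-150 did not pass the test. However, miR-150 was detected on all 4 arrays of day 1 and on 0 arrays of days 3 and 5. Its normalized log2 means differed from day 1 by -3.02 and -3.08. The values without detection scattered widely (SD 2.84 at day 3 and 2.07 at day 5). Their summed signal was 2471-3336 at day 1 and 1267-1525 at day 3, and it was 1594-2026 at day 5. miR-223, the only entry of the granulocytic list, stood at 82084-85627, 39484-47670, and 55476-62758. After normalization it fell at days 3 and 5 against day 1 (log2 changes of -0.44 and -0.43). Whether its signal came from granulocytes was not tested. The part of these cells, of the slide, and of the weak signal in the changes of both arms was not tested.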

How the data were processed

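Total RNA of 12 cultures, 4 independent cultures per day, was measured on 12 single-color arrays. The authors deposited 1 scanner file per array (Feature Extraction 9.5.3.1, annotation mm9), in which the intensity of a miRNA is linear, background-subtracted, and not normalized between arrays. A table of quantile normalized log2 values, also deposited by the authors, leaves undetected features empty.

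As in the study's methods, quantile normalization (limma 3.58.1, R 4.3.3) was applied to total signals of miRNAs with detection on 1 array or more, 334 in all. Values were raised to a floor of 1 where lower (372 of 4008 values, 9.28%), and converted to log2. One mean per day was fitted with lmFit and eBayes, and an adjusted p under 0.01 (Benjamini-Hochberg) was the threshold. Arm ratios were fitted in the same way as differences of log2 values within arrays. With 4 arrays per day, precision is limited by their number and, near the background, by the signal. The code was tested on simulated data. Alternatives covered the filter, scaling, background correction, probes, floor, test, replicate block, and each array left out. Unnormalized means without day 1 replicate 1 or day 5 replicate 4 were added after seeing the data. Tables and figures were made in Python 3.11.15 with pandas 2.3.3 and matplotlib 3.10.9.

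The members and lists were chosen with earlier results of these data known. Named are the members, the entries of the lists, the 5 miRNAs most like each arm, and the pairs with the largest ratio changes, plus miR-125a, miR-34b, and the pairs in small counts, named after their values were seen. The marker lists were stromal (miR-214, miR-145, miR-143, and both arms of miR-199a), megakaryocytic (miR-126-3p), granulocytic (miR-223), lymphoid (miR-181b, miR-181a, and miR-150), erythroid (miR-144 and miR-451, while miR-486 and miR-144* were not analyzed here), and neural (miR-219-5p, miR-124, miR-9, miR-9*, miR-138, miR-128, and miR-7a). RefSeq tables (GRCm38.p6) gave mature sequences for 558 of the 696 array miRNAs. No coordinates were converted between builds.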

Additional observations from a re-analysis of the deposited data

Results flagged for a closer look

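The total signal of miR-338-5p at day 1 was 126 on the array of replicate 1, against 75.2 to 81.7 on the other 3 arrays. Its distance to the nearest of them made up 0.872 of the range of the 4 arrays, past Dixon's 95% critical value. On the log2 scale the value of 6.97 was also set apart (0.840 of the range). Chance alone gives such a distance in about 1 of 20 groups. After quantile normalization the same array (6.33) was the highest of day 1 but did not stand apart. Without this array, the log2 signal of the 5p arm before normalization differed from day 1 by -0.10 at day 3 and 0.00 at day 5. On the normalized scale it was higher by 0.91 at day 3 and 0.92 at day 5, and the ratio of 3p over 5p was lower by 2.08 and 1.34.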

How the results depend on the processing

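The 3p arm was lower at day 3 than at day 1, and the arm ratio lower at days 3 and 5, under every alternative that gave a value. The direction of the 5p arm was not kept. Without normalization it was -0.27 from day 1 to day 3 and -0.16 from day 1 to day 5, and with the 75th percentile of miRNAs detected on all arrays it was -0.17 from day 1 to day 5. For day 5 minus day 1 it was 0.14 with the 75th percentile of all miRNAs, 0.17 with the median, 1.09 with miRNAs detected on all 4 arrays of a day, 0.44 with those detected on all 12, 0.33 without a filter, and 0.18 with normexp. Read from single probes of 12, 13, 14, and 15 bases, it was 1.36, 1.36, 1.11, and 1.38. For day 3 minus day 1 it was 0.00 with miRNAs detected on all 12 arrays, 0.18 with normexp, and 2.24 from the 15-base probe. For day 5 minus day 3 it was 0.32 and 0.44 with the filters on 4 and 12 arrays, -0.63, -0.39, and -0.31 with the 2 percentiles and the median, and 0.48, 0.41, and -0.86 from the probes of 12, 13, and 15 bases. The probes of 12, 13, and 15 bases had 0 spots well above background. Before normalization their mean signals were lower at day 5 than at day 1, with -12.7 against -4.48, -13.5 against -0.39, and 8.34 against 15.8, the opposite direction. The cause of the other differences was not tested.

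The 3p arm differed by -1.82 (day 3 minus day 1) and 1.20 (day 5 minus day 3) without normalization, by -0.57 and 0.36 with normexp, and by 1.14 between days 5 and 3 from the 20-base probe. The arm ratio differed by -0.75 (day 3 minus day 1) and -0.38 (day 5 minus day 1) with normexp, by -0.68 without a filter, and by -0.45 under the 4 scalings by 1 factor or none. With detection on all 12 arrays required, the 3p arm and the ratio gave no value. In the authors' deposited values the differences were -1.83 and 1.62 (3p, days 3 minus 1 and 5 minus 3), 4.99, 4.46, and -0.53 (5p), and -6.79, -4.67, and 2.12 (ratio).

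Of 334 miRNAs, 210 changed over the 3 days, and 175, 203, and 85 from day 1 to 3, day 1 to 5, and day 3 to 5. With detection on all 12 arrays the first 3 counts were 114, 80, and 109 of 148. The deposited values gave 115 of the 220 miRNAs they allowed to be tested for day 3 against day 1, and the 75th percentile of all miRNAs gave 40 for day 5 against day 3. Rises and falls at day 3 against day 1 were 91 and 84, but 29 and 124 without normalization, and at day 5 they were 106 and 97, but 72 and 113 with the 75th percentile of miRNAs detected on all arrays. Arm ratios past the threshold from day 1 to day 5 numbered 9, against 21 of 150 without a filter, 22 with normexp, and 4 under each of the 4 scalings. Leaving out single arrays, the 3p arm stayed at -1.23 to -0.91 and the 5p arm at 0.59 to 0.91 for day 3 minus day 1, and at -0.45 to -0.25 and 0.58 to 0.92 for day 5 minus day 1.

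The replicate numbers were not taken to pair the arrays. The correlation of same-numbered deviations ran from -0.44 to 0.70 over 12 pairs and exceeded 0.1 in 7. Between arrays of different number it ran from -0.66 to 0.62. These ranges overlap and do not settle whether the numbers carry a pairing. With the replicate number as a block, 206 miRNAs changed over the 3 days, 176, 200, and 74 in the 3 contrasts, and 10 arm ratios, while the means of both arms stayed as they were. The signal of the 5p arm was 0.87 to 5.56 times its own error, which limits the precision of its values.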
